A study of Mus musculus with 6 samples.

Results

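The 92 genes described here encode the proteins of the mitochondrial respiratory chain and ATP synthase that are made from nuclear DNA, with 8 factors that build complex I. Members were taken by symbol, as the rows whose names begin with Nduf, Uqcr, Atp5 or Cox4 to Cox8, together with Sdha, Sdhb, Sdhc, Sdhd, Cyc1 and Cycs. Of 17060 genes listed in any library, 92 matched, and 88 of the 12306 genes with enough counts to be tested were members. By complex there were 36 members in complex I, 8 complex I assembly factors, 4 members in complex II, 9 in complex III, cytochrome c itself, 18 in complex IV and 16 in complex V. Ndufa4 and Ndufa4l2 were placed in complex IV, where their proteins are found, although their names come from complex I. The chain subunits encoded in mitochondrial DNA were not analysed here.

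RNA came from erythroblast cultures of WT mice. Lineage-negative BM cells, a fraction rich in stem and progenitor cells, were grown in EPO-containing medium for red cell differentiation and received for 48 hours either the vehicle DMSO or NUP-17d, a small molecule made to bind and inhibit Plek2. There were 3 cultures per condition, with no other allele or agent named in the labels. The study's methods name C57BL/6 as the WT strain of its drug screen, while the labels give no strain, sex or age for these cultures. Whether the cultures came from separate animals was not stated, so the p-values measure the spread between these cultures.

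The respiratory chain passes electrons from NADH (through complex I) and from succinate (through complex II) by way of ubiquinone, complex III and cytochrome c to oxygen at complex IV, and the proton gradient built on the way drives ATP synthase, complex V. Most subunits are translated in the cytosol and imported, whereas a few core subunits of complexes I, III, IV and V are made inside the organelle, and complex II is entirely nuclear coded. Erythroblasts rely on mitochondria for heme and iron-sulfur cluster synthesis, and mitochondria are lost later, as reticulocytes mature into red cells.

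Expected counts summed to between 20076409 and 20419018 per library, so depth was alike in the 2 conditions. Hemoglobin genes took 18.3% to 20.3% of the counts in DMSO cultures and 11.8% to 13.1% in NUP-17d cultures, which moves the share left to every other gene. Levels are therefore given as CPM, counts relative to library size, after TMM scaling, which sets libraries equal over the bulk of genes, with TMM factors of 0.887 to 0.930 in DMSO and 1.08 to 1.11 in NUP-17d cultures. On this scale the median log2 fold change (NUP-17d over DMSO) of all tested genes was 0.014, against 0.28 when libraries were scaled by their totals only and 0.16 by totals after removal of 12 hemoglobin genes. All 14 erythroid markers were called lower with NUP-17d (12 of them with totals only), and their summed level was 26324 to 28232 CPM in DMSO and 16337 to 17266 CPM in NUP-17d cultures. In bulk RNA, fewer cells of a type and less RNA per cell cannot be told apart.

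Sdhb and Cox7a2l were called higher with NUP-17d under each scaling tried, as was Cox6a2, whose promoter is not shown. The 110 bases upstream of the annotated starts of Sdhb and Cox7a2l are given, 5′ to 3′ on the strand of the gene, from RefSeq (GRCm38.p6). Beside them stand those of Sdha and Sdhd, partners of Sdhb that were not called after TMM scaling. Sdhc, the other partner, had no window. The genes shown were picked, so their motifs do not compare called with uncalled members. Capitals mark 2 motifs linked in textbooks to genes of the respiratory chain, that of NRF1 (GCGCA and GCGC with any base between them) and that of ETS factors such as GABPA (CCGGAAG), each searched on both strands.
Sdha, chr13:74350241-74350350, minus strand: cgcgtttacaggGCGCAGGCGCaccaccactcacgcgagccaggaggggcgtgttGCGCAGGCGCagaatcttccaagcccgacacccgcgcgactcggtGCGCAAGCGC
Sdhb, chr4:140961161-140961270, plus strand: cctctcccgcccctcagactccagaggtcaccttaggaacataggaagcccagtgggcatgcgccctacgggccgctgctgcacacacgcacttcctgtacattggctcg
Sdhd, chr9:50603850-50603959, minus strand: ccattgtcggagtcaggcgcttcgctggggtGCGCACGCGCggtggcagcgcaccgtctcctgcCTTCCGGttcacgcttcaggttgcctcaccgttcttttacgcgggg
Cox7a2l, chr17:83514334-83514443, minus strand: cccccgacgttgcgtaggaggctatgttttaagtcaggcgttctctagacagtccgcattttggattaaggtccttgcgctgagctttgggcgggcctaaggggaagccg

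Sdha held 3 NRF1 motifs, 98, 55 and 10 bases before the start, and Sdhd held 1 NRF1 motif 79 bases and 1 ETS motif 46 bases before it. Sdhb held neither in the stretch shown, with an ETS motif 7 bases after the start, and Cox7a2l held neither in its window. Over windows from 250 bases before to 50 bases after a start, the NRF1 motif stood in 20 of the 81 windows found for 76 members (24.7%), in 9.78% of the windows of all tested genes and in 4.60% of all windows of this length. The ETS motif stood in 22.2% of member windows and 17.3% of those of tested genes, and the YY1 motif (AANATGGCG) in 13.6% and 4.91%. For the ESRRA motif (CAAGGTCA) the shares were 4.94% and 1.01%, for CCAAT 44.4% and 37.9%, and for the SP1 motif (GGGCGG), the only 1 of these 6 that was less frequent among members, 45.7% and 60.9%. By complex, NRF1 motifs were found in 8 of 34 windows of complex I, 2 of 3 of complex II, 1 of 5 of complex III, 1 of 13 of complex IV and 6 of 18 of complex V. Members with an NRF1 motif had a median log2 fold change of -0.085 (19 tested genes) and those without -0.10 (55 genes). These matches describe the letters only, and overlaps between motifs were not removed.

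On the TMM scale the nuclear-coded subunits were, on balance, slightly lower with NUP-17d, whereas with totals only they were higher. edgeR's quasi-likelihood test called 32 of 88 members lower (36.4%), where 18.9% of all tested genes were called lower, and 4 higher (4.55%), where the background was 16.4%. The median log2 fold change of the members was -0.10, beside 0.014 for all genes, and 77 of 88 lay below 0 (47.4% of all genes). The 3 NUP-17d cultures lay below all 3 DMSO cultures for 40 of the 88 tested members and above them for 6, where these shares were 23.2% and 22.8% of all tested genes. Changes were small, running from -0.27 (Ndufa5) to 0.25 (Cox7a2l) on the log2 scale with Cox6a2 (1.03) as the 1 exception. DESeq2 called 19 members lower and 3 higher, where the background was 15.0% and 9.63%.

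The direction turned with the scaling. With totals only, 62 members were called higher and 0 lower by edgeR (0 lower also at an unadjusted p under 0.05), where the background was 68.7% higher and 5.34% lower, and after removal of the hemoglobin genes 20 were called higher and 3 lower, where it was 46.4% and 8.57%. The members' raw share of all counts was 0.575% to 0.589% in DMSO and 0.639% to 0.659% in NUP-17d cultures. Of the 88 tested members, 78 lay below the median of all tested genes on the TMM scale and with totals only, and 70 with limma on log2(FPKM + 1). Going from TMM to totals shifts the log2 fold changes of all genes by nearly the same amount. The equal count of 78 was therefore fixed in advance and is no separate result. The share of hemoglobin counts moved with the condition in every culture, and its part in these results was not tested beyond these scalings.

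**Figure D1:**
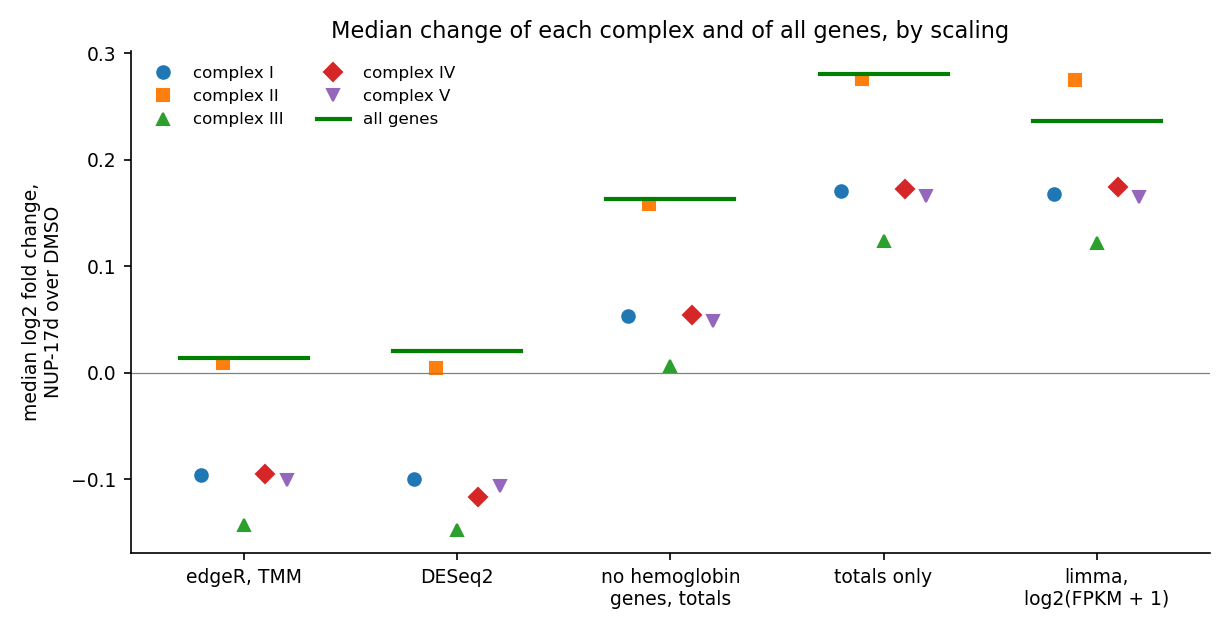
Median log2 fold change (NUP-17d over DMSO, vertical axis) of complexes I to V (symbols) and of all tested genes (green bars) under 5 scalings or tests. Complexes I, III, IV and V lie below the green bar under each of them, and above 0 with hemoglobin genes removed, with totals only and with limma, whereas complex II lies within 0.04 of the bar. A change of library scaling moves symbols and bar together, so their order is not a separate result under each scaling.

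Among complexes, III had the lowest median log2 fold change on the TMM scale, -0.14, with 6 of 9 members called lower and 0 higher (0 higher at an unadjusted p under 0.05, and 4 lower and 0 higher with DESeq2). Complexes I, IV and V lay close together at -0.096, -0.095 and -0.10, with 12 of 36, 5 of 14 tested and 7 of 16 members called lower, where the background was 18.9%, and 1, 2 and 0 called higher, where it was 16.4%. With DESeq2, whose background was 15.0% lower and 9.63% higher, 5 of 36 members of complex I were called lower (13.9%) and 0 higher (0 also at an unadjusted p under 0.05), and complex IV had 4 lower and 2 higher. The calls of lower in complex I fell to 7 without NUP-17d culture 1, and the median of complex IV was -0.058 without that culture and -0.062 without DMSO culture 1. Complex II stood at 0.0092, with 1 of 4 called higher and 0 lower (1 lower at an unadjusted p under 0.05, and 0 with DESeq2). With totals only, the medians of complexes I to V were all above 0 (0.17, 0.28, 0.12, 0.17 and 0.17).

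**Figure D2:**
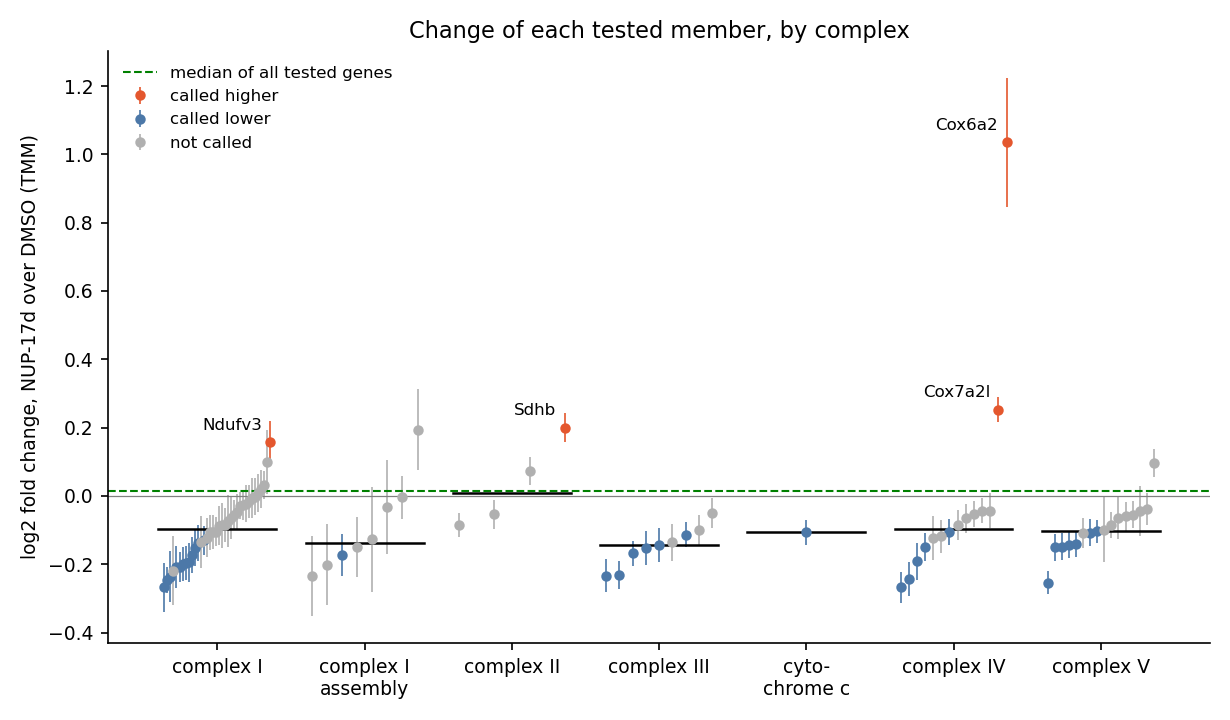
Log2 fold change (NUP-17d over DMSO, TMM scale, vertical axis) of each of the 88 tested members, grouped by complex, with its SE as a bar and coloured by the call at an adjusted p under 0.05. Black lines are medians of a complex and the dashed green line that of all tested genes, 0.014, which would lie at 0.28 with totals only; the 4 genes called higher are named.

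Summed levels add up the counts of each complex in each culture, so members with the most counts weigh most. Summed over complex III, the TMM-normalised level was 650.3, 633 and 636 CPM in DMSO cultures 1, 2 and 3 and 566, 576 and 589.6 CPM in NUP-17d cultures, a difference of -9.7%. Complex V summed to 2706, 2637 and 2676 CPM against 2382, 2393 and 2471 CPM, a difference of -9.7%. The groups did not overlap in either complex. Atp5b had the most counts in complex V and weighs most in its sum. By the median log2 fold change on the TMM scale, complex V (-0.10) lay nearer to complex I (-0.096) than to complex III (-0.14). Complex I differed by -6.7% without overlap (1396 to 1441 against 1286 to 1370.4 CPM), complex IV by -4.5% with overlap (1099 to 1144 against 1037 to 1113 CPM) and complex II by 0.31% with overlap (370.4 to 375 against 363 to 380.5 CPM). With totals only, each of the 5 sums was higher in the 3 NUP-17d cultures, by 8.6% in complex III to 20.7% in complex II. These sums were not tested.

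**Figure D3:**
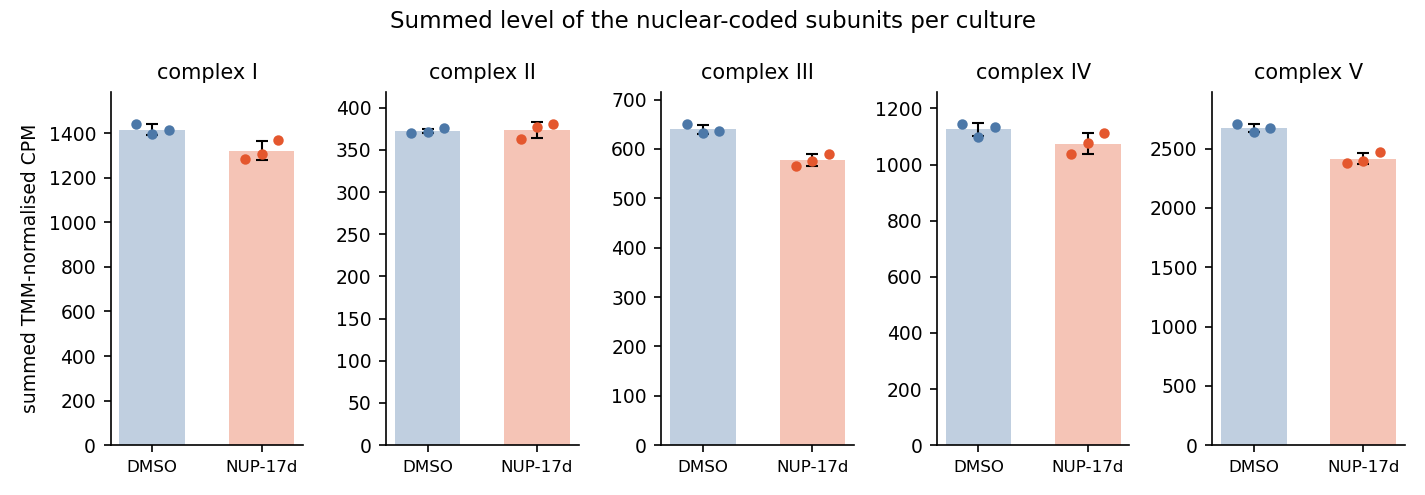
Summed TMM-normalised CPM of the members of each complex (vertical axes, from 0) in DMSO and NUP-17d cultures, with points for the 3 cultures, bars for means and error bars for SD. The NUP-17d points lie below the DMSO points in complexes I, III and V and overlap them in II and IV; with totals only they lie above in all 5.

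Levels can be set side by side between genes only per length, as FPKM. The median over the general subunits was 39.9 FPKM in complex I, 60.5 in complex II, 76.3 in complex III, 164 in complex IV and 129.9 in complex V, against 8.18 FPKM over all tested genes. Complex I assembly factors stood far lower, at a median of 6.93 FPKM (1.61 for Ndufaf5 to 12.0 for Ndufaf8). Within a complex the spread was 9.61 times in complex I (11.5 FPKM for Ndufb2 to 109.98 for Ndufb11) and only 1.55 times in complex II (43.5 for Sdhd to 67.5 for Sdhb). Atp5b, the catalytic beta subunit of ATP synthase, had the highest level of all members, 439 ± 5.73 FPKM in DMSO and 445 ± 8.60 FPKM in NUP-17d cultures (SD, n = 3).

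**Figure D4:**
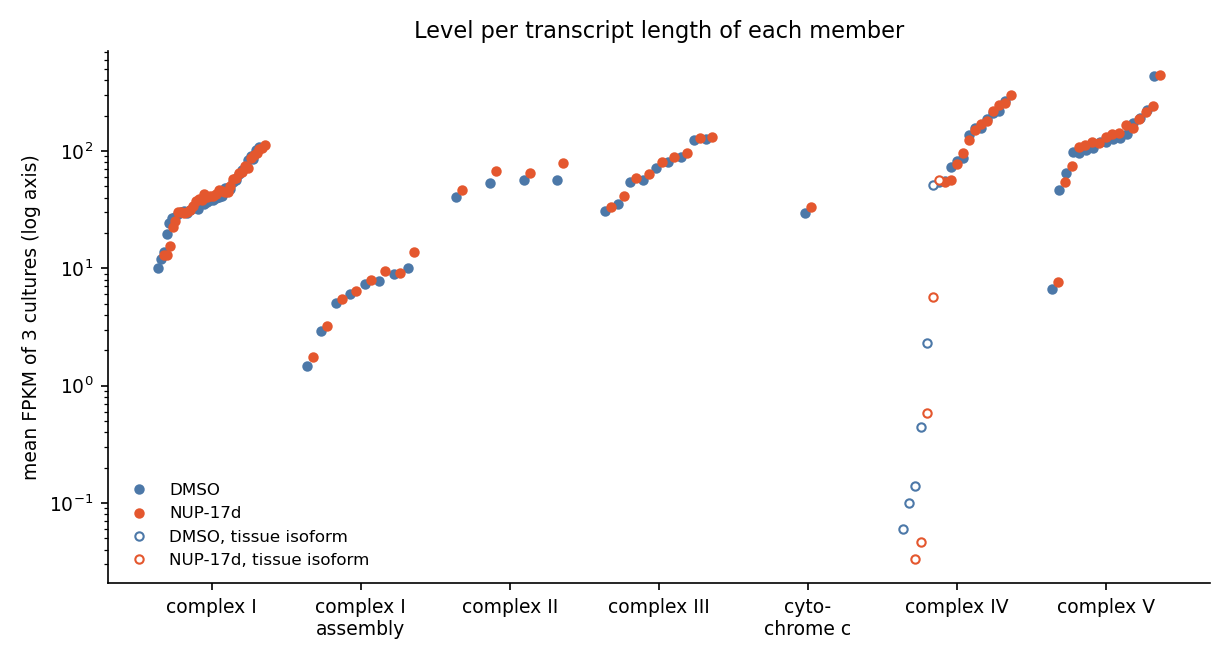
Mean FPKM over 3 cultures (vertical log axis) of each member by complex, DMSO in blue and NUP-17d in red, with tissue isoforms of complex IV as open circles. The general subunits of complexes IV and V have medians of 164 and 129.9 FPKM, assembly factors of complex I one of 6.93, and 4 tissue isoforms of complex IV lie below 1 (a mean of 0 is not drawn); FPKM is scaled by library totals, so the red points sit higher than on the TMM scale.

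Complex I oxidises NADH. Its 7 nuclear-coded core subunits include the carriers of the flavin and the iron-sulfur clusters. On the TMM scale Ndufs1, Ndufs3 and Ndufv2 were called lower (42.9%, beside 18.9% of all tested genes), and the other 4 were not called. With totals only 5 of the 7 were called higher, beside 68.7% of all tested genes. Ndufs1, the large iron-sulfur subunit, measured 91.2, 93.5 and 90.3 CPM in DMSO cultures 1, 2 and 3 and 77.3, 75.8 and 78.8 CPM in NUP-17d cultures 1, 2 and 3. Every NUP-17d culture lay below every DMSO culture (log2 fold change -0.25 ± 0.038 SE, adjusted p by edgeR 1.07e-05), and the call was kept with each culture left out, whereas with totals only the log2 fold change was 0.021 and after removal of the hemoglobin genes -0.10. At the other end of the core, Ndufs7, which carries the last iron-sulfur cluster before ubiquinone, measured 31.8, 31.4 and 29.2 CPM in DMSO cultures 1, 2 and 3 and 30.3, 29.8 and 33.7 CPM in NUP-17d cultures 1, 2 and 3. Its groups overlapped (log2 fold change 0.020 ± 0.057 SE, adjusted p by edgeR 0.815).

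The calls of Ndufs3 and Ndufv2 were less firm. Ndufs3, a core subunit of the peripheral arm, had means of 42.2 ± 2.70 and 37.4 ± 1.92 CPM (log2 fold change -0.17 ± 0.053 SE, adjusted p by edgeR 0.012), and the adjusted p by edgeR became 0.110 without DMSO culture 3 and 0.0668 without NUP-17d culture 1. Ndufv2, an iron-sulfur subunit of the NADH-oxidising module, had means of 61.9 ± 1.91 and 56.6 ± 0.427 CPM (log2 fold change -0.13 ± 0.042 SE, adjusted p by edgeR 0.0159), with an adjusted p by edgeR of 0.0718 without DMSO culture 2, 0.0603 without DMSO culture 3 and 0.0524 without NUP-17d culture 2. Ndufv1, the subunit that binds NADH, had means of 57.8 ± 2.39 and 56.7 ± 0.319 CPM with overlapping groups.

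Accessory subunits of complex I, which surround the core, were called lower for 9 of 29 (31.0%, beside 18.9% of all tested genes) and higher for 1, with a median log2 fold change of -0.10 on the TMM scale and 0.16 with totals only. DESeq2 called 4 of the 29 lower (13.8%, beside 15.0%) and 0 higher (0 higher in complex I at an unadjusted p under 0.05), and edgeR called 5 lower without NUP-17d culture 1. Ndufb9, of the membrane arm, measured 71.1, 66.5 and 72.5 CPM in DMSO cultures 1, 2 and 3 and 57.6, 61.2 and 63.1 CPM in NUP-17d cultures 1, 2 and 3. The groups did not overlap (log2 fold change -0.21 ± 0.045 SE, adjusted p by edgeR 0.000594), while with totals only the value was 0.059. Ndufb7, also of the membrane arm, measured 38.1, 37.1 and 39.8 CPM in DMSO cultures 1, 2 and 3 and 32.0, 33.7 and 34.3 CPM in NUP-17d cultures 1, 2 and 3. Here too the NUP-17d cultures were all lower (log2 fold change -0.20 ± 0.05 SE, adjusted p by edgeR 0.00248), and with totals only the value was 0.067. Ndufb11, the member of complex I with the highest FPKM and 1 of 10 members whose expected counts were not whole in some library, measured 109.97, 102 and 92.0 CPM in DMSO cultures 1, 2 and 3 and 85.4, 86.7 and 93.3 CPM in NUP-17d cultures 1, 2 and 3. NUP-17d culture 3 lay above DMSO culture 3 (log2 fold change -0.20 ± 0.049 SE, adjusted p by edgeR 0.0027).

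Ndufv3 was the 1 complex I subunit called higher. An accessory subunit of the NADH-oxidising module, it measured 23.5, 24.6 and 24.6 CPM in DMSO cultures 1, 2 and 3 and 24.6, 27.4 and 29.0 CPM in NUP-17d cultures 1, 2 and 3. All NUP-17d cultures lay above all DMSO cultures, though culture 1 only just (log2 fold change 0.16 ± 0.062 SE, adjusted p by edgeR 0.0485). The call was lost in 5 of 6 fits with a culture left out, with an adjusted p by edgeR of 0.152, 0.0817 and 0.0861 without DMSO cultures 1, 2 and 3 and of 0.109 and 0.253 without NUP-17d cultures 2 and 3, and in DESeq2 the adjusted p was 0.216. The FPKM ratio of Ndufv3 to Ndufs1 within a library, which no scaling of libraries can alter, was 1.08 ± 0.0786 in DMSO and 1.41 ± 0.138 in NUP-17d cultures (SD, n = 3) without overlap. Ndufs1 was itself called lower (log2 fold change -0.25), so this ratio is no separate support for the call of Ndufv3. This ratio and the others below were chosen after the values were seen.

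Of the 8 complex I assembly factors taken by symbol, which act on the growing complex and leave it, Ndufaf4 alone was called on the TMM scale. That is 12.5% called lower, beside 18.9% of all tested genes, so it is not a result about the group. With totals only 2 of the 8 were called higher, beside 68.7% of all tested genes. Ndufaf4 had means of 20.6 ± 0.647 and 18.3 ± 0.426 CPM (log2 fold change -0.17 ± 0.061 SE, adjusted p by edgeR 0.0291), and its adjusted p by edgeR was 0.0671 and 0.105 without DMSO cultures 1 and 3 and 0.0730 and 0.0805 without NUP-17d cultures 1 and 2. The lowest and the highest log2 fold change belonged to Ndufaf2 (log2 fold change -0.23 ± 0.12 SE, adjusted p by edgeR 0.127) and Ndufaf8 (log2 fold change 0.19 ± 0.12 SE, adjusted p by edgeR 0.211), both with few counts (6.62 and 5.17 CPM in DMSO cultures) and neither called.

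Complex II, succinate dehydrogenase, belongs both to the citric acid cycle and to the chain. Sdhb, its iron-sulfur subunit, was called higher, while the other 3 subunits were not called on the TMM scale. Sdhb measured 67.8, 65.8 and 68.7 CPM in DMSO cultures 1, 2 and 3 and 73.9, 77.4 and 80.9 CPM in NUP-17d cultures 1, 2 and 3. All NUP-17d cultures lay above all DMSO cultures (log2 fold change 0.20 ± 0.042 SE, adjusted p by edgeR 0.000477), the call held with each culture left out, and with totals only the value was 0.47. Sdha, the flavoprotein that oxidises succinate, measured 176, 183 and 179.6 CPM in DMSO cultures 1, 2 and 3 and 166, 171 and 171 CPM in NUP-17d cultures 1, 2 and 3. Its NUP-17d cultures were all lower (log2 fold change -0.085 ± 0.035 SE, adjusted p by edgeR 0.0586).

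Sdhc and Sdhd anchor the enzyme in the membrane and bind ubiquinone. Sdhc measured 70.5, 66.7 and 68.5 CPM in DMSO cultures 1, 2 and 3 and 69.9, 73.2 and 73.1 CPM in NUP-17d cultures 1, 2 and 3, with overlapping groups (log2 fold change 0.072 ± 0.041 SE, adjusted p by edgeR 0.177). Sdhd measured 55.8, 55.6 and 58.6 CPM in DMSO cultures 1, 2 and 3 and 53.5, 55.0 and 55.2 CPM in NUP-17d cultures 1, 2 and 3, and its NUP-17d cultures were all slightly lower (log2 fold change -0.054 ± 0.042 SE, adjusted p by edgeR 0.347). With totals only, all 4 genes were called higher, beside 68.7% of all tested genes, and Sdhb by most (0.47 against 0.21 for Sdhd). Within a library the FPKM ratio of Sdhb to Sdha was 1.02, 0.958 and 1.02 in DMSO cultures and 1.19, 1.21 and 1.26 in NUP-17d cultures, so these groups did not overlap whatever the scaling.

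Complex III passes electrons from ubiquinol to cytochrome c. All 9 members were below 0 on the TMM scale and all 9 above 0 with totals only. Uqcrh, the acidic hinge subunit beside cytochrome c1, measured 74.2, 72.3 and 74.5 CPM in DMSO cultures 1, 2 and 3 and 60.1, 63.2 and 65.0 CPM in NUP-17d cultures 1, 2 and 3. The groups did not overlap (log2 fold change -0.23 ± 0.041 SE, adjusted p by edgeR 6.94e-05), and with totals only the value was 0.035. Uqcrb, a small subunit near the ubiquinone site, measured 68.3, 63.7 and 68.6 CPM in DMSO cultures 1, 2 and 3 and 53.1, 57.0 and 60.6 CPM in NUP-17d cultures 1, 2 and 3. NUP-17d culture 3 came closest to the DMSO cultures and still lay below them (log2 fold change -0.23 ± 0.048 SE, adjusted p by edgeR 0.000325), while with totals only the value was 0.034.

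Uqcrc2, a core protein of the matrix arm, again with expected counts that were not all whole, measured 115, 115 and 112 CPM in DMSO cultures 1, 2 and 3 and 98.9, 105 and 101 CPM in NUP-17d cultures 1, 2 and 3. All NUP-17d cultures were lower (log2 fold change -0.17 ± 0.038 SE, adjusted p by edgeR 0.000855), whereas with totals only the gene was called higher (0.10). The calls of Uqcrh, Uqcrb and Uqcrc2 were kept with each culture left out. Cyc1, cytochrome c1, which carries a heme, was not called (log2 fold change -0.10 ± 0.044 SE, adjusted p by edgeR 0.0798), nor was Uqcrfs1, the Rieske iron-sulfur protein (log2 fold change -0.049 ± 0.044 SE, adjusted p by edgeR 0.416). Their groups overlapped, though Cyc1 was called lower without NUP-17d culture 3 (adjusted p by edgeR 0.0225).

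Cytochrome c, the mobile carrier between complexes III and IV and a trigger of apoptosis when released, is encoded by Cycs, whose expected counts were not all whole either. Cycs measured 102, 100.3 and 101 CPM in DMSO cultures 1, 2 and 3 and 92.1, 95.9 and 93.5 CPM in NUP-17d cultures 1, 2 and 3. All NUP-17d cultures lay below the DMSO cultures (log2 fold change -0.11 ± 0.037 SE, adjusted p by edgeR 0.0263). The call was lost in 5 of the 6 fits with a culture left out, with an adjusted p by edgeR of 0.0700, 0.0545 and 0.0602 without DMSO cultures 1, 2 and 3 and of 0.0794 and 0.0531 without NUP-17d cultures 1 and 3, and with totals only the gene was called higher (0.16).

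**Figure D5:**
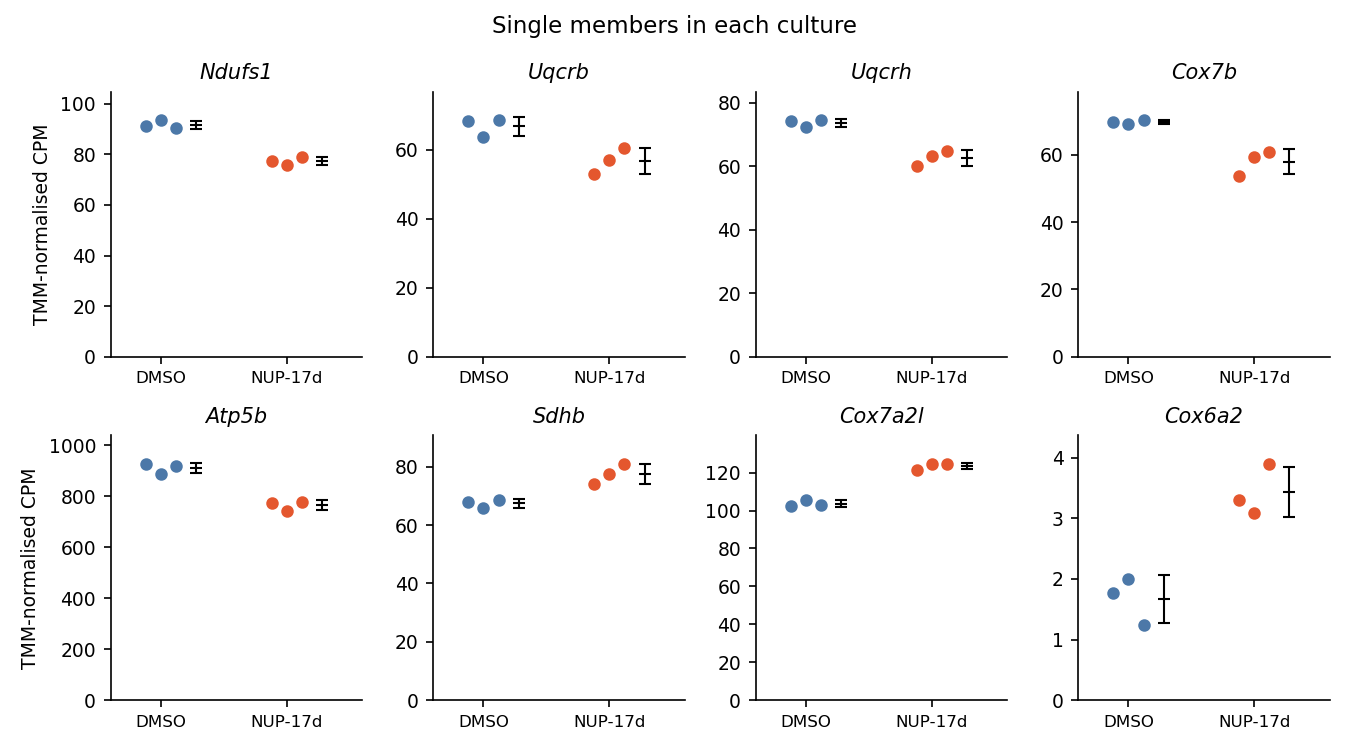
TMM-normalised CPM (vertical axes, from 0) of 8 members in each of the 3 DMSO (blue) and 3 NUP-17d (red) cultures, with mean and SD in black. NUP-17d points lie below the DMSO points for Ndufs1, Uqcrb, Uqcrh, Cox7b and Atp5b and above them for Sdhb, Cox7a2l and Cox6a2; with totals only the first 5 lie within 0.04 of 0 on the log2 scale.

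Complex IV reduces oxygen. Its 11 general subunits were all below 0 on the TMM scale, 5 of them called lower (beside 18.9% of all tested genes), and all above 0 with totals only. Cox7b, a small membrane subunit, measured 69.7, 69.1 and 70.3 CPM in DMSO cultures 1, 2 and 3 and 53.7, 59.4 and 60.7 CPM in NUP-17d cultures 1, 2 and 3. The groups stood well apart (log2 fold change -0.27 ± 0.045 SE, adjusted p by edgeR 3.3e-05), and with totals only the value was 0.000089. Cox6a1, the general isoform of subunit 6a and the member of complex IV with the highest FPKM (266 ± 2.81 in DMSO and 298 ± 10.5 in NUP-17d cultures), measured 154, 145 and 146 CPM in DMSO cultures 1, 2 and 3 and 132, 141 and 141 CPM in NUP-17d cultures 1, 2 and 3. Its call (log2 fold change -0.11 ± 0.038 SE, adjusted p by edgeR 0.0327) was lost without DMSO culture 1 (adjusted p by edgeR 0.162) and without NUP-17d culture 1 (0.160). Cox8a, another small subunit, had the next highest level, 221 ± 8.74 FPKM in DMSO cultures, and was not called (log2 fold change -0.066 ± 0.042 SE, adjusted p by edgeR 0.243).

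Cox7a2l is known as a supercomplex factor that can take the place of subunit 7a and tie complex IV to complex III. Its RNA rose, while its protein and that function were not measured in these cultures. Cox7a2l measured 102, 106 and 103 CPM in DMSO cultures 1, 2 and 3 and 121, 125 and 124 CPM in NUP-17d cultures 1, 2 and 3. The lowest NUP-17d culture stood above the highest DMSO culture (log2 fold change 0.25 ± 0.036 SE, adjusted p by edgeR 3.34e-06), the call held with each culture left out, and with totals only the value was 0.52. Its paralog Cox7a2, the general subunit 7a, went the other way on the TMM scale, with 44.9, 42.8 and 46.4 CPM in DMSO cultures 1, 2 and 3 and 37.7, 35.8 and 39.8 CPM in NUP-17d cultures 1, 2 and 3. These groups did not overlap either (log2 fold change -0.24 ± 0.05 SE, adjusted p by edgeR 0.000346), though with totals only the value of Cox7a2 was 0.024. Within a library the FPKM ratio of Cox7a2l to Cox7a2 was 1.54, 1.67 and 1.497 in DMSO cultures and 2.18, 2.35 and 2.11 in NUP-17d cultures, without overlap.

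Tissue isoforms of complex IV, which replace a general subunit in heart, muscle, lung or testis, were nearly silent apart from Cox6b2 and Cox6a2. Cox6a2, the isoform of heart and skeletal muscle, had expected counts of 32, 38 and 23 in DMSO cultures and 73, 69 and 85 in NUP-17d cultures, or 1.77, 2.003 and 1.24 CPM in DMSO cultures 1, 2 and 3 and 3.301, 3.09 and 3.90 CPM in NUP-17d cultures 1, 2 and 3. It rose by the largest factor of all members (log2 fold change 1.03 ± 0.19 SE, adjusted p by edgeR 9.46e-05), and with totals only by 1.30. Its level stayed a small fraction of that of Cox6a1, with an FPKM ratio of 0.00869 ± 0.00207 in DMSO and 0.0192 ± 0.00215 in NUP-17d cultures (SD, n = 3). At chr7:128205435-128206366 (GRCm38.p6) Cox6a2 shares 70 bases with the neighbouring Itgad, for which only 1.1 to 7.92 counts were listed per library.

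Cox6b2, the testis isoform of subunit 6b, measured 32.9, 25.9 and 29.3 CPM in DMSO cultures 1, 2 and 3 and 27.4, 26.6 and 26.8 CPM in NUP-17d cultures 1, 2 and 3, with overlapping groups (log2 fold change -0.12 ± 0.065 SE, adjusted p by edgeR 0.145). Its FPKM ratio to the general Cox6b1 was 0.328 ± 0.0299 in DMSO and 0.320 ± 0.0225 in NUP-17d cultures, also overlapping, and Cox6b1 was not called (log2 fold change -0.085 ± 0.043 SE, adjusted p by edgeR 0.134). Both were called lower with 1 culture left out, Cox6b2 without DMSO culture 2 (adjusted p by edgeR 0.0142) and Cox6b1 without NUP-17d culture 2 (0.0467). The 4 members that had too few counts to be tested were all tissue isoforms. Cox4i2 had 0 to 3 counts per library beside 153.7 CPM of Cox4i1 in DMSO cultures, Cox7a1 had 1 to 7, Cox7b2 0 to 1, and Ndufa4l2 0 to 3 beside 80.4 CPM of Ndufa4. For these 4 a difference was not detectable at this depth. Ndufa4 itself was called lower (log2 fold change -0.15 ± 0.04 SE, adjusted p by edgeR 0.00449), while with totals only its value was 0.12, and Cox4i1 was not called (log2 fold change -0.054 ± 0.038 SE, adjusted p by edgeR 0.289).

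Complex V makes ATP. On the TMM scale 7 of its 16 members were called lower and 0 higher by edgeR (1 higher at an unadjusted p under 0.05), where the background was 18.9% and 16.4%. DESeq2 called 6 lower and 0 higher, where it was 15.0% and 9.63%. With totals only 14 were called higher, where it was 68.7%. Atp5b, the catalytic beta subunit, measured 927, 889 and 917 CPM in DMSO cultures 1, 2 and 3 and 774, 742 and 776 CPM in NUP-17d cultures 1, 2 and 3. Every NUP-17d culture was lower by more than 100 CPM (log2 fold change -0.25 ± 0.035 SE, adjusted p by edgeR 1.69e-06), and with totals only the value was 0.014. Atp5a1, the alpha subunit that pairs with it, had means of 515 ± 7.24 and 479 ± 4.06 CPM (log2 fold change -0.10 ± 0.033 SE, adjusted p by edgeR 0.0159), with an adjusted p by edgeR of 0.0537 without DMSO culture 2. Although the proteins stand in equal number in the enzyme, the FPKM ratio of Atp5b to Atp5a1 was 2.33, 2.24 and 2.36 in DMSO cultures and 2.13, 2.03 and 2.10 in NUP-17d cultures, without overlap.

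The peripheral stalk, which holds the head still, had 3 of 4 members called lower on the TMM scale, where the background was 18.9%. All 4 were called higher with totals only, where it was 68.7%. Atp5f1, its membrane-anchored subunit b, another member without whole expected counts in some library, measured 196, 194 and 188 CPM in DMSO cultures 1, 2 and 3 and 165, 179.6 and 178 CPM in NUP-17d cultures 1, 2 and 3. The groups did not overlap (log2 fold change -0.14 ± 0.038 SE, adjusted p by edgeR 0.00361). Atp5l, the small membrane subunit g involved in dimer formation and the complex V member with the next highest FPKM after Atp5b (224 ± 10.6 in DMSO cultures), measured 123, 128 and 121 CPM in DMSO cultures 1, 2 and 3 and 106, 111 and 118 CPM in NUP-17d cultures 1, 2 and 3. Again the NUP-17d cultures were all lower (log2 fold change -0.15 ± 0.04 SE, adjusted p by edgeR 0.00429), and with totals only it was called higher (0.12).

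The 3 genes of the c-ring, Atp5g1, Atp5g2 and Atp5g3, encode the same mature protein with different import sequences. On the TMM scale 1 of the 3 was called lower, beside 18.9% of all tested genes. With totals only all 3 were called higher, beside 68.7%. Atp5g1 measured 84.1, 81.6 and 85.0 CPM in DMSO cultures 1, 2 and 3 and 76.9, 77.9 and 77.9 CPM in NUP-17d cultures 1, 2 and 3. It was called lower (log2 fold change -0.11 ± 0.038 SE, adjusted p by edgeR 0.0308), a call lost without DMSO cultures 1 and 3 (adjusted p by edgeR 0.0756 and 0.106) and without NUP-17d cultures 1 and 2 (0.0704 and 0.0625). Atp5g2 measured 88.2, 89.6 and 86.9 CPM in DMSO cultures 1, 2 and 3 and 90.1, 98.5 and 94.3 CPM in NUP-17d cultures 1, 2 and 3. Its NUP-17d cultures were all higher (log2 fold change 0.10 ± 0.04 SE, adjusted p by edgeR 0.063), and the gene was called in 1 of 6 fits with a culture left out, that without NUP-17d culture 1 (adjusted p by edgeR 0.0179). Atp5g3 measured 80.0, 81.0 and 78.8 CPM in DMSO cultures 1, 2 and 3 and 74.2, 74.4 and 85.1 CPM in NUP-17d cultures 1, 2 and 3, with NUP-17d culture 3 above every other (log2 fold change -0.038 ± 0.046 SE, adjusted p by edgeR 0.56). The FPKM ratio of Atp5g2 to Atp5g1 was 1.32 ± 0.0477 in DMSO and 1.52 ± 0.0579 in NUP-17d cultures (SD, n = 3) without overlap, and that of Atp5g3 to Atp5g1 overlapped between groups.

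Other mitochondrial gene lists give the setting. A further 40 tested assembly factors had names outside the member rule, among them complex I factors such as Tmem126b, Ecsit and Timmdc1. By edgeR on the TMM scale 2 of the 40 were called higher and 3 lower, where the background was 16.4% and 18.9% (median -0.027). With DESeq2, 0 were called higher and 2 lower, and 1 was higher at an unadjusted p under 0.05. With totals only 28 were called higher and 1 lower, where the background was 68.7% and 5.34%. The lowest p-values were those of the copper chaperone Cox11 (16.7 ± 1.25 CPM in DMSO and 11.4 ± 0.272 CPM in NUP-17d cultures, log2 fold change -0.56 ± 0.075 SE, adjusted p by edgeR 1.14e-06) and of Cox20, which helps mature complex IV (22.8 ± 1.83 and 17.7 ± 0.915 CPM, -0.36 ± 0.067, 0.000109). Mitochondrial protein import had 7 of 24 called lower and 0 higher by edgeR (0 higher at an unadjusted p under 0.05, 5 lower and 0 higher with DESeq2) and a median of -0.11, near that of the subunits, against 13 higher and 2 lower with totals only. Its small intermembrane chaperones Timm13 (23.2 ± 0.3997 and 16.7 ± 1.21 CPM, -0.48 ± 0.064, adjusted p by edgeR 1.18e-06) and Timm10 (15.1 ± 0.998 and 10.1 ± 0.727 CPM, -0.58 ± 0.080, 1.67e-06) fell further than any subunit of the chain on the TMM scale and stayed below 0 with totals only, at -0.21 and -0.32.

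Over all tested genes, edgeR called 18.9% lower and 16.4% higher, DESeq2 15.0% and 9.63%, and with totals only 68.7% were called higher. A list of 18 genes held enzymes of the citric acid cycle and, as Pdha1, Pdhb, Dlat and Pdhx, of the pyruvate dehydrogenase complex. Among these 18, 6 were called lower and 0 higher by edgeR (1 higher at an unadjusted p under 0.05), with a median of -0.067. DESeq2 called 3 of them lower and 0 higher, and with totals only 17 were called higher. Pdhx, which binds a pyruvate dehydrogenase subunit (-0.24 ± 0.065, adjusted p by edgeR 0.00535), and the malate dehydrogenase Mdh2 (-0.12 ± 0.036, 0.0124) had the lowest p-values. Of 16 factors for mitochondrial DNA expression 2 were called lower and 0 higher (0 in either direction with DESeq2 and 0 higher at an unadjusted p under 0.05), the helicase Twnk (-0.20 ± 0.069, adjusted p by edgeR 0.0290) and the RNA-binding Slirp (-0.25 ± 0.091, 0.0328), and 12 were called higher with totals only. Of 10 tested transcription factors that act on respiratory genes, 1 was called higher, Esrra (10.8 ± 0.362 and 12.5 ± 0.0609 CPM, 0.21 ± 0.077, adjusted p by edgeR 0.0309), and 2 lower, with Sp1 at -0.12 ± 0.037 (adjusted p by edgeR 0.0131), against 9 higher with totals only. DESeq2 called 0 of these factors higher (0 also at an unadjusted p under 0.05) and 1 lower.

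Markers of cell types moved with the condition as well, and their part in the members' values was not tested. The 14 erythroid markers had a median log2 fold change of -0.54 on the TMM scale and -0.27 with totals only, among them Kel, a red cell surface antigen (366 ± 4.93 and 219 ± 5.65 CPM). Of the megakaryocyte markers 7 of 10 were called higher and 1 lower (summed level 564 to 618 against 657 to 685 CPM), led by Itgb3 and Gp1bb. Stem and progenitor markers had 4 of 9 tested called higher and 1 lower (399.9 to 419 against 415 to 426 CPM), among them Kit higher and Ly6a lower. Neutrophil and monocyte markers had 4 of 14 higher and 2 lower (4182 to 4362 against 4306 to 4576 CPM, Csf3r and Ngp with the lowest p-values), and macrophage markers 3 of 11 higher and 3 lower (646 to 708 against 701 to 773 CPM, Cd68 among them). Mast cell and basophil markers had 1 of 7 tested higher and 3 lower (316 to 328 against 292 to 303 CPM, Prss34 and Mcpt8), with the mast cell protease Mcpt4 at 0 in every library. These are calls by edgeR, with which 16.4% of all tested genes were called higher and 18.9% lower. DESeq2 called 6 megakaryocyte markers higher and 1 lower, 2 stem and progenitor markers higher and 1 lower, 4 neutrophil and monocyte markers higher and 2 lower, and 2 macrophage markers higher and 1 lower. Of the mast cell and basophil markers it called 0 higher (0 also at an unadjusted p under 0.05) and 2 lower, and of the erythroid markers 14 lower. The summed level of the 92 respiratory genes was 6315 to 6493 CPM in DMSO and 5798 to 6091 CPM in NUP-17d cultures.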

How the data were processed

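Per the labels, poly(A)-selected RNA was reverse transcribed from random primers and sequenced on a DNBseq instrument, whereas the study's methods name a TruSeq kit and an Illumina instrument. The authors deposited for each culture an expected count per gene, an estimate of its reads that need not be whole and is not normalized, and an FPKM value, that count divided by an effective transcript length and by the library total. The submitters' processing notes name mm10, and the aligner and counter are not given in the sources used here. A gene without a row in a culture was taken as 0.

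Expected counts were rounded and fitted for all genes kept by filterByExpr with edgeR 4.0.16 in R 4.3.3 (TMM, quasi-likelihood test, 3 cultures per group, Benjamini-Hochberg adjustment, threshold 0.05). Alternatives were DESeq2 1.42.0, totals only, totals without hemoglobin genes, no filter, the culture number as a block, leaving out each culture, and limma 3.58.1 on log2 FPKM with 1 or 0.1 added. The fits were also run on simulated counts that were not given the shift in hemoglobin share, so that run does not bear on the choice of scaling. Members were matched by symbol, and the 92 Entrez identifiers were found in RefSeq (GRCm38.p6), from which chromosomes and promoter windows were taken.

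Members and gene lists were chosen with earlier results of these data known. Named genes are all of complex II and cytochrome c, the 3 lowest p-values and 2 highest FPKM means in complexes I, III, IV and V, c-ring genes, tissue isoforms with their counterparts, core subunits of complex I, the assembly factors with the lowest and highest change, called members opposite to their complex, untested members, and up to 2 genes per comparison list. Ndufa5, Ndufaf4, Cox7a2 and Atp5a1 were also named after their values were seen, as were the ratios. Expected counts were not whole in some library for Ndufa13, Ndufa2, Ndufb11, Ndufs1, Ndufaf7, Uqcrc2, Atp5f1, Atp5j, Atp5s and Cycs, whose values are less certain. Single results of a few genes are not reported here. The main fit used no block for the culture number. Same-numbered cultures did not deviate together, which cannot show whether equal numbers mark cells from the same source.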

Additional observations from a re-analysis of the deposited data

How the results depend on the processing

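With 3 cultures per group and log2 changes mostly under 0.3, 16 of the 32 calls of lower and 1 of the 4 of higher were lost with at least 1 culture left out, and only relative levels can be read since no spike-in was used; members with few counts, such as tissue isoforms, were limited by depth. Members called higher and lower numbered 4 and 32 with edgeR and TMM, 62 and 0 with totals only, 20 and 3 by totals without hemoglobin genes, 63 and 0 with limma on log2(FPKM + 1) and on log2(FPKM + 0.1) (0 lower also at an unadjusted p under 0.05), 3 and 19 with DESeq2, 3 and 29 without the filter, and 3 to 5 and 22 to 36 with a culture left out; the last 2 left the counts within 1.5 times. With the culture number as a replicate block they were 5 and 36, with all 32 and all 4 calls kept. Over all tested genes, 16.4% were called higher and 18.9% lower with edgeR and TMM, and 68.7% and 5.34% with totals only. The shares were 46.4% and 8.57% by totals without hemoglobin genes, and 9.63% and 15.0% with DESeq2. They were not taken for limma, the fit without the filter, the block or the fits with a culture left out. FPKM is scaled by library totals, so the limma counts are not read as a result about the members. The correlations of same-numbered cultures' deviations were 0.057, -0.0046 and -0.0032. Values near 0 cannot show whether equal numbers mark cells from the same source, which the labels do not state. Relative to all genes, the medians of all members, complexes I, III, IV and V and cytochrome c were below 0 in each alternative, whereas that of complex II lay close to 0 on either side and was 0.039 under limma on log2(FPKM + 1), where the others were -0.074 (all members), -0.069 (I), -0.11 (III), -0.077 (cytochrome c), -0.062 (IV) and -0.071 (V). With totals only and by totals without hemoglobin genes this could hardly differ, as these scalings shift all genes nearly alike. With a culture left out the median of complex III relative to all genes ran from -0.17 to -0.12, the latter without DMSO culture 1. The log2 ratios of summed levels turned from below 0 to above it with totals only (0.16 for all members, 0.17 for complex I, 0.17 for its assembly factors, 0.12 for III, 0.16 for cytochrome c, 0.20 for IV and 0.12 for V) and without hemoglobin genes (0.038, 0.050, 0.053, 0.0017, 0.043, 0.083 and 0.0029), and rose for complex II (0.27 and 0.15). Relative to all genes, 7 of the members reported singly, none of them called, turned to above 0 under limma on log2(FPKM + 1), Ndufa6 (0.040), Ndufa7 (0.0069), Ndufb4 (0.028), Ndufc2 (0.014), Ndufs8 (0.017), Ndufv1 (0.0013) and Ndufaf7 (0.0049), and with log2(FPKM + 0.1) Ndufa6 alone did (0.0093). The scalings differ by their construction in how they treat the hemoglobin share, and other causes were not tested.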
